A study of Mus musculus with 16 samples.

Results

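The 4 receptor genes Ffar2, Ffar3, Hcar2 and Htr4 were followed across 16 Illumina mouse BeadChip arrays. They were taken by name through the platform's table of probes and genes, and each had 1 probe, so that 4 of the 25697 probes on an array, or 4 of 11055 named genes, are described here. Proximal colon smooth muscle of wild-type C57Bl/6 mice gave the RNA, and 4 arrays were made for each of 4 groups. GF mice were germ-free and SPF mice carried a specific pathogen-free flora. The other mice were germ-free until they were colonized by gavage with cecal contents of donor mice, 4 weeks before they were killed. C/-Lop recipients were given contents of control donors, and C/+Lop recipients those of donors with pharmacologically induced constipation (PIC), which had drunk 0.1% loperamide for 7 days. Donors of both kinds were aged 8 to 10 weeks. The GF mice were matched to the donors for age. The sources used here give loperamide to the donors only. The labels number the replicates 1 to 4, except for the SPF replicate labelled 13, and leave it unsaid whether the 4 arrays of a group stand for 4 animals, so that p-values reflect no more than array-to-array spread, part of which may be technical.

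Gut bacteria ferment fibre to the short-chain fatty acids acetate, propionate and butyrate, and the host senses these through receptors on the cell surface. Ffar2 encodes GPR43 and Ffar3 encodes GPR41, both of which bind short-chain fatty acids. Ffar3 signals through inhibitory G proteins, and Ffar2 through these and through the Gq family. Hcar2 encodes GPR109A, the receptor for nicotinic acid, which also binds the ketone body beta-hydroxybutyrate and butyrate. Htr4 encodes a serotonin receptor that raises cyclic AMP through the stimulatory G protein and is a target of prokinetic drugs. In the gut these receptors are known from enteroendocrine cells, epithelium, immune cells and enteric neurons rather than from muscle alone, and most serotonin of the gut is made by enterochromaffin cells of the epithelium.

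A probe is carried by many beads, and its intensity is their mean fluorescence. The detection p-value beside it compares the probe with the negative control probes of the same array, and a probe was taken as above background at a detection p under 0.05. Across the 16 arrays the median intensity was 116.6 to 167.6, with 144.1 to 167.6 on SPF arrays and 124.1 to 141.7 on GF arrays, and 12364 to 13942 probes were above background. The number of arrays limits the precision of each comparison. Markers of smooth muscle were well expressed, with a mean log2 value over 9 genes of 11.15 to 12.46 per array. Markers of colonic epithelium were present as well (10 genes, 10.71 to 11.60), as were those of enteroendocrine cells (10 genes, 8.40 to 8.97), of enteric neurons (10 genes, 5.98 to 7.53) and of macrophages (6 genes, 6.65 to 8.25). The RNA of this layer thus held transcripts known from the mucosa. Of neutrophils, which are known to carry Ffar2 and Hcar2, 3 of the 8 markers could be tested, and 0 to 3 of these were above background on an array. None of the 6 glial and none of the 7 mast cell markers could be tested.

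In the RefSeq gene table, Ffar2 and Ffar3 lie on chromosome 7 with 1 annotated gene, Gm32236, between them, and Ffar3 is followed directly by Ffar1, a receptor for long-chain fatty acids. Hcar2 lies on chromosome 5 beside Hcar1, the lactate receptor. The 250 bases before the start of Ffar2 and of Ffar3 are printed from the RefSeq promoter table (build GRCm38.p6, both on the minus strand, read in the direction of the gene), because these neighbours bind the same acids, while Ffar2 was above background on every array and Ffar3 was not. The Ffar2 window, before the most upstream of the 4 starts in the table, covers chr7:30823776-30824025, and the Ffar3 window covers chr7:30856179-30856428. Capitals mark the only match found in each.
Ffar2: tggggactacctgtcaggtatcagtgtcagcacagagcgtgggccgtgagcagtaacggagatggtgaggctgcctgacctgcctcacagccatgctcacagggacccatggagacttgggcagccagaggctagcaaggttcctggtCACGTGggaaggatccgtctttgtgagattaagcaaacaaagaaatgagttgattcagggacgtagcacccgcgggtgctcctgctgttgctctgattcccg
Ffar3: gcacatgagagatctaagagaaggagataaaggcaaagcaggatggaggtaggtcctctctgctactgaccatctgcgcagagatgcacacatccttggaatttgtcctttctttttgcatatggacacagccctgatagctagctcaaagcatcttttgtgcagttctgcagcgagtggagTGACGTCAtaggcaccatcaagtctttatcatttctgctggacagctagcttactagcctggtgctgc
Both strands were searched for 4 motifs, whose matches do not overlap in these windows. The E-box was searched as CACGTG, and the Ffar2 window held 1 such match at position -102 from the start. The cAMP response element was searched as TGACGTCA, and the Ffar3 window held 1 at position -68. The TATA box was searched as TATAAA and had no match in either window, nor did the sequence that gives the CCAAT box its name. The windows before the other Ffar2 starts held no E-box, and that before the most downstream start held a CCAAT box at position -37. Of 32851 windows of the same length, 6.02% held an E-box, 1.55% a cAMP response element, 12.4% a TATA box and 33.8% a CCAAT box. A match is a string of letters here, and no factor was measured on these promoters. The GC content was 56.8% in the Ffar2 window and 48.0% in the Ffar3 window.

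Ffar2 gave a clear signal in every mouse group. Its probe was above background on 16 of 16 arrays, with an intensity of 537.4 to 3503.5, which was 4.34 to 22.3 times the lowest intensity that counted as above background on the same array. The other 3 receptors stood at or just above that limit. Htr4 was above background on 16 of 16 arrays at 1.03 to 1.26 times the limit, Ffar3 on 14 of 16 at 0.957 to 1.09 times, and Hcar2 on 13 of 16 at 0.985 to 1.18 times. No receptor was below background on all arrays of a group, though Ffar3 was above it on only 2 of 4 C/+Lop arrays. In whole tissue, fewer cells of a type and less RNA per cell cannot be told apart.

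**Figure D1:**
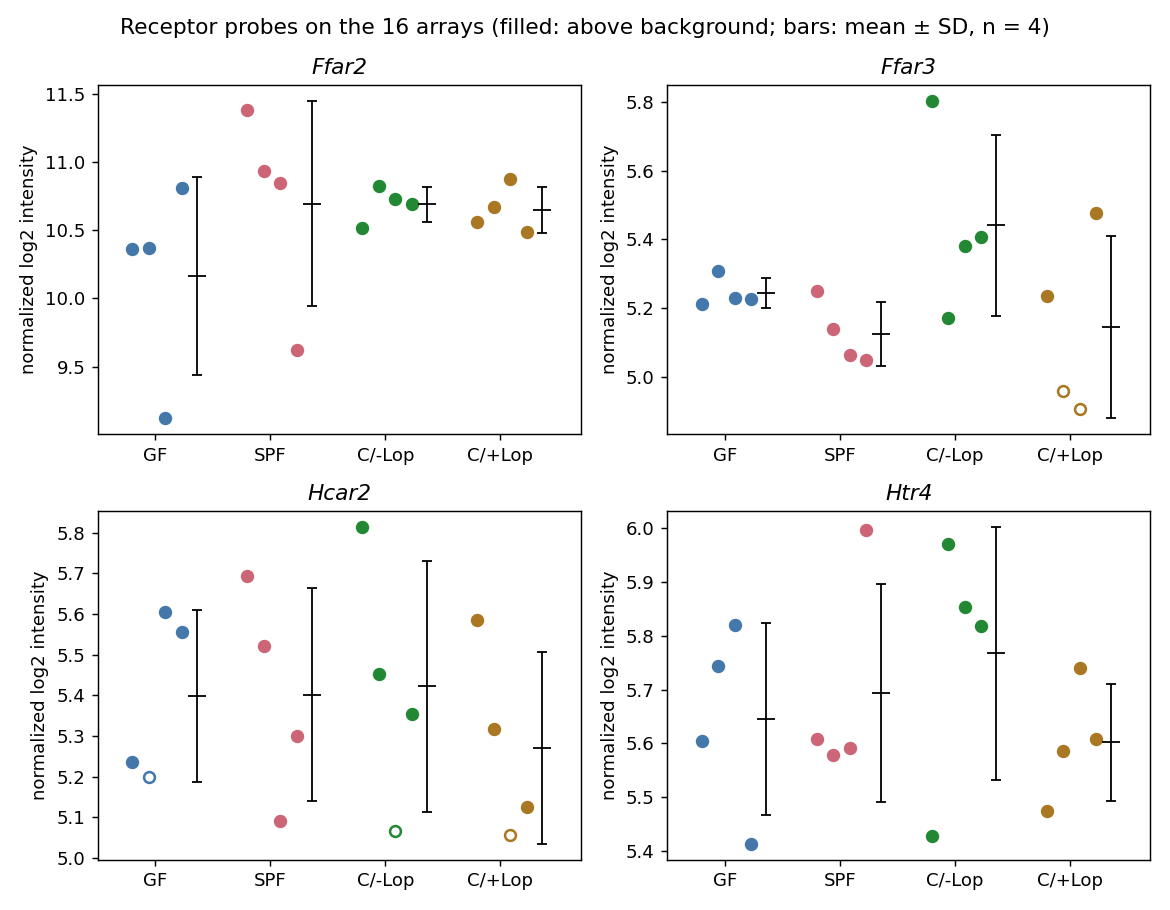
Normalized log2 intensity (y axis) of the 4 receptor probes on each array, by group (x axis), with filled points for arrays above background, open points for the rest, and the mean ± SD of 4 arrays in black. Each panel has its own y axis; Ffar2 spread from 9.12 to 10.81 on GF and from 9.62 to 11.38 on SPF arrays, against 10.51 to 10.83 on C/-Lop and 10.49 to 10.88 on C/+Lop arrays.

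Ffar2 varied far more among GF and among SPF arrays than among recipients. Its normalized log2 values were 10.36, 10.37, 9.12 and 10.81 on GF replicates 1 to 4. On SPF replicates 1, 2, 13 and 4 they were 11.38, 10.94, 10.85 and 9.62. GF replicate 3 and SPF replicate 4 were thus the lowest arrays of their groups, and SPF replicate 1 was the highest of all 16. C/-Lop replicates 1 to 4 had 10.51, 10.83, 10.73 and 10.69, and C/+Lop replicates 1 to 4 had 10.56, 10.67, 10.88 and 10.49. All 8 recipient arrays lay within the range of the SPF arrays, and the ranges of all 4 groups overlapped. The mean was 10.17 ± 0.73 (SD, n = 4) in GF, 10.70 ± 0.75 in SPF, 10.69 ± 0.13 in C/-Lop and 10.65 ± 0.17 in C/+Lop mice.

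The SD of Ffar2 was larger than that of 98.9% of all kept probes in GF and of 98.2% in SPF mice, but larger than that of 40.8% in C/-Lop and 54.9% in C/+Lop mice. Error of reading the probe was small beside this. The standard error over its 25 to 46 beads was 1.94% to 2.97% of the intensity, and on the log2 scale its median was 0.036, while the SD between arrays of a group, pooled over the 4 groups, was 0.53, or 14.8 times as large. The difference in SD between groups was not tested. Of both low arrays, SPF replicate 4 was the only one of its group with Xist, the transcript of the inactive X chromosome, at a log2 value of 6.64, while GF replicate 3 had 4.85 like the rest of its group. Smooth muscle markers were highest within GF mice on replicate 3 (11.99) and shared the highest value within SPF mice on replicates 2 and 4 (12.46). Their part in the low Ffar2 values was not tested.

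None of the receptors passed the test in any of the 6 comparisons, at an adjusted p under 0.05 (limma, Benjamini-Hochberg over 14102 kept probes). Of 24 tests, 2 had an unadjusted p under 0.05, both of Ffar3, in C/-Lop against SPF and in C/+Lop against C/-Lop. Of the 14102 probes, 4694 and 608 had such a p by limma in these comparisons. The share of all probes that passed was 19.9% in SPF against GF, 2.70% in C/-Lop against GF, 7.09% in C/+Lop against GF, 0% in C/+Lop against C/-Lop, 16.8% in C/-Lop against SPF and 22.0% in C/+Lop against SPF. Without SPF replicate 2 the count of such probes was 1358 instead of 2813 in SPF against GF, and without C/-Lop replicate 2 it was 99 instead of 381 in C/-Lop against GF. For any difference among the 4 groups the share was 26.0%, and the adjusted p of the F test was 0.471 for Ffar2, 0.216 for Ffar3, 0.853 for Hcar2 and 0.712 for Htr4. In 0 of the 24 tests did the arrays of one group all lie on one side of the other. Among all probes this was so for 18.8%, 12.9%, 17.2%, 4.12%, 21.2% and 23.0% in the same order of comparisons. With 4 arrays against 4, an exact permutation test cannot give a two-sided p below 0.0286, and only groups that do not overlap can reach 0.05. That 0 of the 24 exact tests did so follows from the overlap and adds nothing to it. A count of 0 among 4 genes cannot be set apart from these shares.

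**Figure D2:**
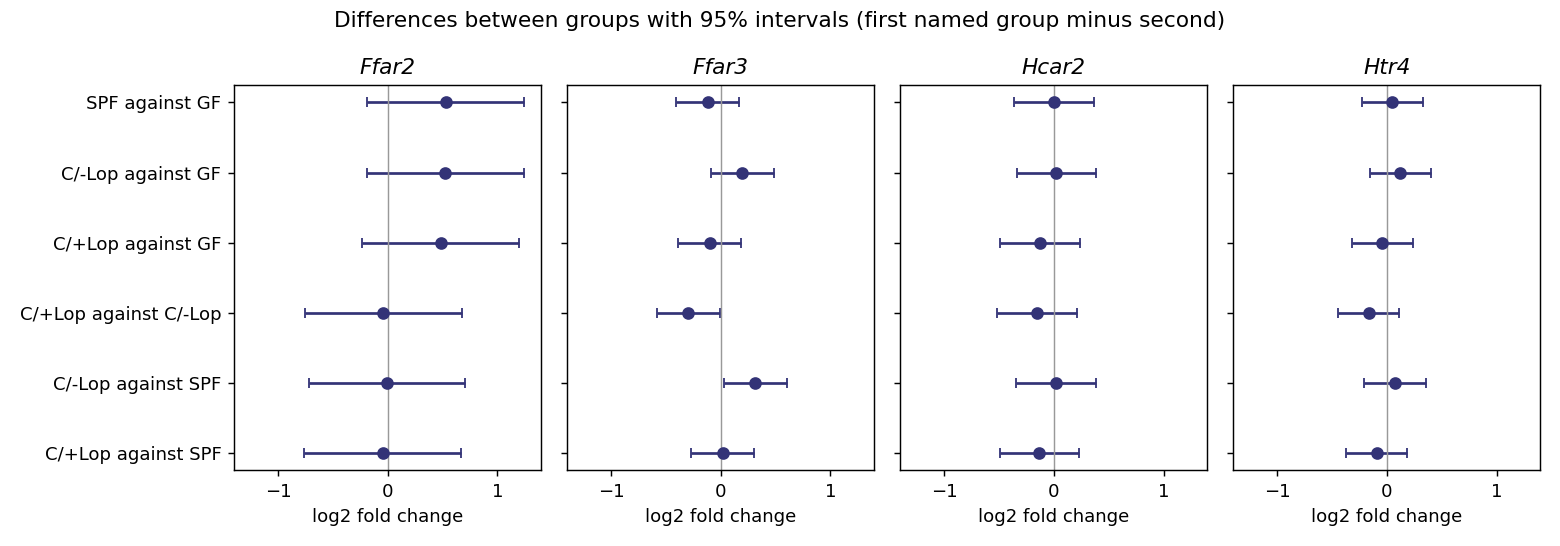
Log2 fold change (x axis) of each receptor in the 6 comparisons (y axis), first named group minus second, with 95% intervals from limma. The intervals of Ffar2 are the widest (SE 0.34), and those of Ffar3 in C/+Lop against C/-Lop and in C/-Lop against SPF lie on one side of 0 before adjustment. Each interval rests on a spread pooled over all 4 groups, which for Ffar2 and Ffar3 differed widely between groups.

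Ffar2 was 0.53 higher on the log2 scale in SPF than in GF mice (SE 0.34, 95% interval -0.18 to 1.24), a fold of 1.44 that did not pass (adjusted p 0.280 by limma, exact permutation p 0.371). Mean intensity was 1370 ± 617 (SD, n = 4) in GF and 2355 ± 1082 in SPF mice before normalization. Single arrays moved this difference. Without SPF replicate 4 it was 0.89 and had an adjusted p of 0.0497, and without GF replicate 3 it was 0.18. Both recipient groups were higher than GF mice by about as much, C/-Lop by 0.52 (95% interval -0.19 to 1.24, adjusted p 0.450 by limma) and C/+Lop by 0.48 (95% interval -0.23 to 1.20, adjusted p 0.405 by limma), and without GF replicate 3 by 0.18 and 0.14. These 3 comparisons share the GF arrays. Between the recipient groups Ffar2 differed by -0.04 (95% interval -0.75 to 0.68), C/+Lop minus C/-Lop, which by this fit leaves room for a fold of 0.593 to 1.60. The fit pools the spread of all 4 groups. The SD was 0.13 in C/-Lop and 0.17 in C/+Lop mice, against 0.73 in GF and 0.75 in SPF mice. The width of this interval thus comes largely from arrays outside the comparison. Against SPF mice Ffar2 differed by -0.01 in C/-Lop and by -0.05 in C/+Lop recipients, with an SE of 0.34. In order of the mean the groups were SPF, C/-Lop, C/+Lop and GF, and no neighbours in this order differed beyond their spread.

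Ffar3, the second receptor for short-chain fatty acids, stayed at the limit of detection. Intensities were 137.9, 140.6, 126 and 144.1 on GF replicates 1 to 4, and 164.9, 167.7, 153.1 and 141.4 on SPF replicates 1, 2, 13 and 4. They were 136.8, 136.4, 144.5 and 152.8 on C/-Lop replicates and 156.2, 142.9, 132.8 and 122.4 on C/+Lop replicates. C/+Lop replicates 2 and 3 were the only arrays on which the probe was not above background, with detection p-values of 0.0915 and 0.124. The normalized log2 mean was 5.25 ± 0.04 (SD, n = 4) in GF, 5.13 ± 0.09 in SPF, 5.44 ± 0.26 in C/-Lop and 5.15 ± 0.26 in C/+Lop mice, and all ranges overlapped. Bead error was of the size of the spread between arrays here, at a median of 0.18 on the log2 scale against a pooled SD of 0.19.

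Ffar3 had the lowest unadjusted p-values of the 4 receptors. In C/+Lop against C/-Lop it was lower by 0.30 (SE 0.13, 95% interval -0.58 to -0.01), a fold of 0.815, with p = 0.0433 from limma, an adjusted p of 1.00 and an exact permutation p of 0.2. In C/-Lop against SPF it was higher by 0.32 (SE 0.13, 95% interval 0.03 to 0.60), with p = 0.0327 from limma, an adjusted p of 0.113 and an exact permutation p of 0.0571. The highest array, C/-Lop replicate 1 (5.80), entered both. Without it the differences were -0.18 and 0.19. The SE is pooled over all 4 groups. The SD was 0.26 in both recipient groups, against 0.04 in GF and 0.09 in SPF mice. The interval and the limma p between recipients thus rest in part on the smaller spread of arrays outside that comparison. Before background correction and normalization the sign against SPF turned, to -0.13, and the median intensity of SPF arrays was above that of most others. With Xist as a covariate the difference was 0.41 and passed, with an adjusted p of 0.0224 by limma. Xist was unevenly spread over the groups, at 6.64 to 7.01 on SPF replicate 4 and on replicates 2 and 3 of each recipient group and at 4.54 to 4.99 on all other arrays, among them every GF array, and the labels give no sex of the mice. The Ffar3 value with this covariate was the one alternative, beside the Ffar2 value without SPF replicate 4, under which any receptor passed. In order of the mean the groups were C/-Lop, GF, C/+Lop and SPF, with no neighbours apart beyond their spread.

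**Figure D3:**
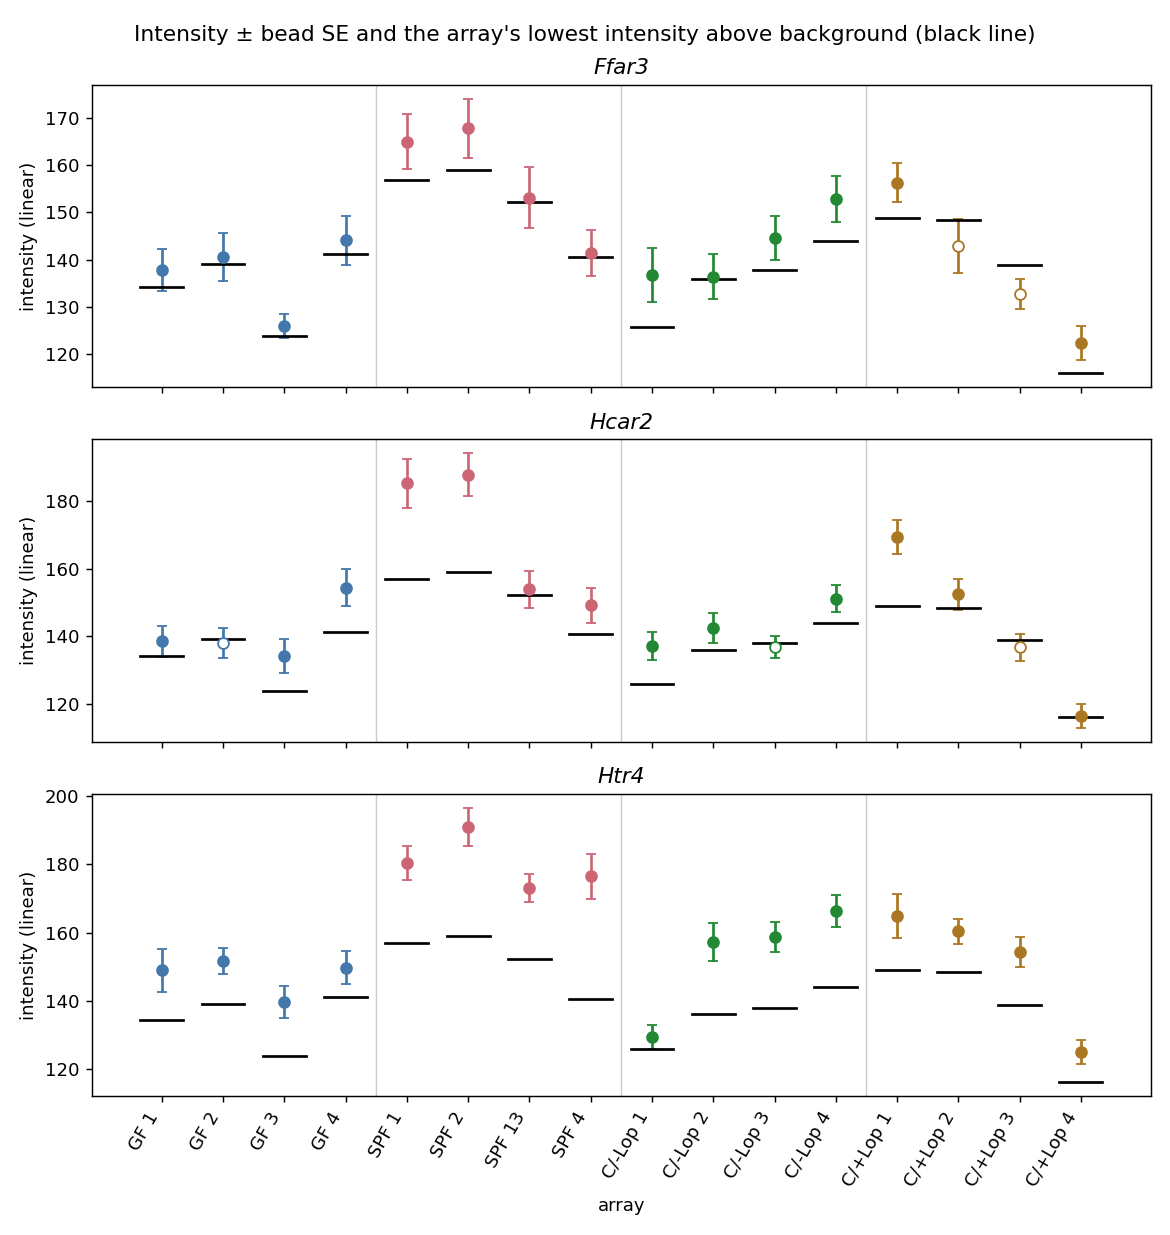
Deposited intensity (y axis, linear, not starting at 0) of Ffar3, Hcar2 and Htr4 on each of the 16 arrays (x axis), with the standard error over the beads as bars and the lowest intensity that counted as above background on that array as a black line. Filled points are above background; Ffar3 lay within 0.957 to 1.09 times the line, Hcar2 within 0.985 to 1.18 times and Htr4 within 1.03 to 1.26 times.

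Hcar2, the receptor for nicotinic acid and butyrate, was likewise close to the limit. Its intensity was 138.5, 138, 134.2 and 154.4 on GF replicates 1 to 4, of which replicate 2 was not above background. SPF replicates 1 and 2 had 185.3 and 187.9, the highest of all arrays, and replicates 13 and 4 had 153.9 and 149.2. C/-Lop replicates had 137.1, 142.4, 136.8 and 151.1, and C/+Lop replicates 169.4, 152.4, 136.7 and 116.4, with replicate 3 of each group not above background. After normalization the log2 means were 5.40 ± 0.21 (SD, n = 4) in GF, 5.40 ± 0.26 in SPF, 5.42 ± 0.31 in C/-Lop and 5.27 ± 0.24 in C/+Lop mice, and all groups overlapped.

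The 6 differences of Hcar2 ran from -0.15 to 0.02 on the log2 scale (SE 0.17), with adjusted p-values of 0.619 and above by limma. SPF and GF mice differed by 0.0030 (95% interval -0.36 to 0.37), which leaves room for a fold of 0.779 to 1.29 on this scale. The C/+Lop minus C/-Lop difference was -0.15 (95% interval -0.51 to 0.21). Bead error had a median of 0.17 on the log2 scale, and the pooled SD between arrays was 1.55 times that. The order of the means was C/-Lop, SPF, GF and C/+Lop, and no neighbours differed beyond their spread.

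Htr4, the serotonin receptor, whose gene lies on chromosome 18, was above background on every array, with detection p-values of 0 to 0.0288. GF replicates 1 to 4 had intensities of 148.9, 151.6, 139.6 and 149.7, and SPF replicates 1, 2, 13 and 4 had 180.5, 191, 173 and 176.5. C/-Lop replicates had 129.2, 157.3, 158.6 and 166.3, and C/+Lop replicates 164.9, 160.4, 154.4 and 124.9. All SPF intensities were thus above those of every other group as deposited. The limit of detection moved with them, from 123.8 to 141.1 on GF arrays to 140.5 to 159 on SPF arrays. On these intensities 4286 of 14102 probes passed in SPF against GF, 6130 in C/-Lop against SPF and 4397 in C/+Lop against SPF. Separation of all arrays was not counted over all probes on this scale.

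After normalization this separation was gone. The log2 values of Htr4 were 5.61, 5.74, 5.82 and 5.41 on GF replicates and 5.61, 5.58, 5.59 and 6.00 on SPF replicates 1, 2, 13 and 4. C/-Lop replicates had 5.43, 5.97, 5.85 and 5.82, and C/+Lop replicates 5.47, 5.59, 5.74 and 5.61. The mean was 5.65 ± 0.18 (SD, n = 4) in GF, 5.69 ± 0.20 in SPF, 5.77 ± 0.24 in C/-Lop and 5.60 ± 0.11 in C/+Lop mice. SPF exceeded GF mice by 0.05 (SE 0.13, 95% interval -0.23 to 0.33), a fold of 1.03 with an adjusted p of 0.830 by limma. The C/+Lop minus C/-Lop difference was -0.17 (SE 0.13, 95% interval -0.44 to 0.11, adjusted p 1.00 by limma). The other 4 differences were between -0.09 and 0.12. The order of the means was C/-Lop, SPF, GF and C/+Lop, and neighbours overlapped.

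For Ffar3, Hcar2 and Htr4 a log2 difference on this scale is a difference of weak signals to which an offset of 16 was added, and it understates the fold of a dim transcript. The intervals above bound the probe's signal on this scale and do not bound the fold of the transcript. For Ffar2, whose intensity was 414 to 3350 above the limit, the offset counts for little.

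Correlations between the receptors were weak to moderate across the arrays. Over 16 arrays, which share their normalization and groups, Pearson's r was -0.03 between Ffar2 and Ffar3, -0.03 between Ffar2 and Hcar2, -0.38 between Ffar2 and Htr4, 0.39 between Ffar3 and Hcar2, -0.26 between Ffar3 and Htr4 and -0.37 between Hcar2 and Htr4. With the group means taken out, r was -0.51 between Ffar2 and Htr4, -0.56 between Ffar3 and Htr4 and -0.49 between Hcar2 and Htr4, and -0.041, -0.016 and 0.39 for the pairs without Htr4 in the order above. These values are a description, and bead error enters those of the 3 dim probes.

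The genes most like Ffar2 across the 16 arrays, out of 9861, were Dnajc10 (r = 0.91, Spearman's rho 0.63), an endoplasmic reticulum disulfide reductase, Slc66a2 (r = 0.91, rho 0.77) and Incenp (r = 0.90, rho 0.74), a subunit of the chromosomal passenger complex. Like Ffar2, they were low on GF replicate 3 and SPF replicate 4. Without both arrays r was 0.70, 0.73 and 0.79. None of the 3 passed in SPF against GF mice (adjusted p 0.314, 0.571 and 0.187 by limma). An r over 0.7 with Ffar2 was found for 158 of the 9861 genes, against 10 for Ffar3, 13 for Hcar2 and 3 for Htr4.

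**Figure D4:**
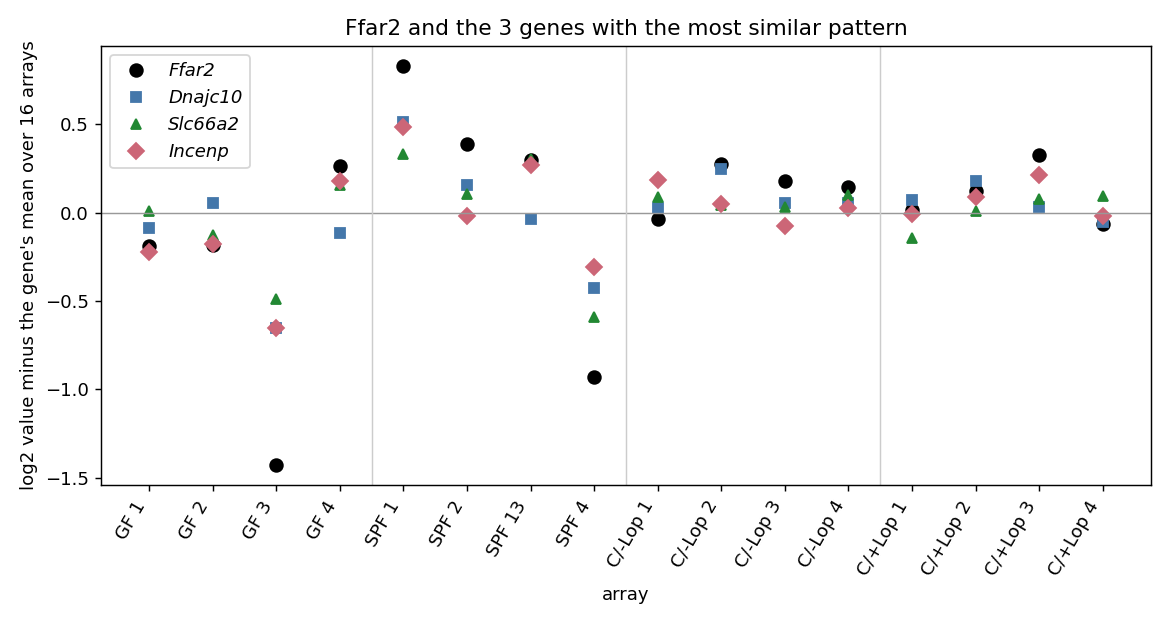
Log2 value minus the gene's own mean over 16 arrays (y axis) of Ffar2, Dnajc10, Slc66a2 and Incenp on each array (x axis, by group). All 4 genes are low on GF replicate 3 and SPF replicate 4, and their r with Ffar2 is 0.91, 0.91 and 0.90.

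Likeness to the dim receptors was weaker. It was highest for Ube4a (r = 0.82), the phospholipase gene Plcb4 (0.80) and Rasgef1b (0.80) with Ffar3, for Pon1, Bend3 (0.75 each) and the growth hormone receptor gene Ghr (0.74) with Hcar2, and for Atp12a (0.78), a proton pump of the colon, Tagap (0.75) and Zfp710 (0.72) with Htr4. Ube4a, Plcb4 and Rasgef1b were themselves dim, with log2 values of 4.65 to 5.85, and without C/-Lop replicate 1 and C/+Lop replicate 3 their r with Ffar3 was 0.50 to 0.59. Atp12a ranged from 7.03 to 11.72 and was highest on SPF replicate 4, as was Htr4. These are the highest values out of 9861 genes and are given with no test.

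Among other receptors for metabolites, 6 of the 14 listed could be tested, and in SPF against GF mice 0 rose, 2 fell and 4 did not pass. Their median difference was -0.23, beside -0.01 over all probes, of which 19.9% passed in this comparison. Ffar4, the receptor for long-chain fatty acids known as GPR120, was 10.65, 10.87, 10.32 and 10.75 on GF replicates and 10.03, 9.80, 9.56 and 8.40 on SPF replicates 1, 2, 13 and 4. After normalization the groups did not overlap. As deposited they did, with intensities of 1523.8 on SPF replicate 1 and 1348.5 on SPF replicate 2, against 1133.3 on GF replicate 3. Ffar4 fell by 1.20 in SPF mice (SE 0.27, adjusted p 0.00753 by limma), or 2.30-fold. In recipients it was at the GF level, 1.15 (C/-Lop) and 1.25 (C/+Lop) above SPF mice (adjusted p 0.0107 and 0.00554 by limma). Nr1h4, the bile acid receptor FXR, fell by 0.86 in SPF against GF mice (SE 0.24, adjusted p 0.0229 by limma), and did not pass without GF replicate 1, SPF replicate 2 or SPF replicate 4 (adjusted p 0.0627, 0.0750 and 0.0688). Against SPF mice it was higher by 0.78 in C/-Lop and 0.96 in C/+Lop recipients (adjusted p 0.0387 and 0.0127 by limma). These calls held in 2 and 8 of the 8 fits with 1 array left out. Olfr78, a receptor for short-chain fatty acids, was above background on 3 of 4 SPF arrays, 2 of 4 C/-Lop arrays and no GF or C/+Lop array, with log2 means of 5.13 in SPF, 5.05 in C/-Lop, 4.81 in GF and 4.74 in C/+Lop mice. Its level in GF and C/+Lop mice is only bounded from above, and no fold is given. Colonic epithelial markers were 11.30 to 11.60 on GF and 10.71 to 11.29 on SPF arrays. With the mean of these markers as a covariate the Ffar4 difference between SPF and GF mice was -1.13 and that of Nr1h4 was -0.43, with adjusted p-values of 0.187 and 0.561. Marker levels did not overlap between GF and SPF arrays, so this fit separates them poorly from the group, and their part was not tested.

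Of other serotonin receptors, 3 of 13 could be tested, of which 1 rose in SPF against GF mice, where 19.9% of all probes passed. Htr3a, a subunit of the serotonin-gated ion channel of enteric neurons, was 5.62, 4.99, 6.23 and 5.64 on GF replicates and 6.11, 6.87, 5.76 and 7.59 on SPF replicates 1, 2, 13 and 4. The groups overlapped, and the difference of 0.96 (SE 0.32, adjusted p 0.0430 by limma) did not pass without any 1 of GF replicates 1, 2 and 4 or SPF replicates 2 and 4 (0.0749 to 0.140). Without SPF replicate 4 it was 0.63. Htr2b, a receptor that couples to Gq, had a difference of 0.67 (adjusted p 0.202), which was 0.26 without GF replicate 2. Enteric neuron markers were 5.98 to 7.00 on GF and 6.60 to 7.53 on SPF arrays. Their part in the Htr3a difference was not tested.

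Of 10 genes of serotonin synthesis and clearance, 5 could be tested, and 1 rose in SPF against GF mice, 1 in C/+Lop against GF and 0 in C/-Lop against GF mice. Of all probes, 19.9%, 7.09% and 2.70% passed in these comparisons. Tph1, the rate-limiting enzyme of serotonin synthesis in enterochromaffin cells, was 7.30, 6.98, 6.36 and 6.43 on GF replicates, 6.64, 6.49, 7.30 and 5.64 on SPF replicates 1, 2, 13 and 4, 7.72, 7.34, 7.54 and 7.50 on C/-Lop replicates and 8.02, 7.99, 8.03 and 7.79 on C/+Lop replicates. After normalization all recipient arrays were above all GF and SPF arrays, and all C/+Lop arrays above all C/-Lop arrays. As deposited the groups overlapped, with an intensity of 227.2 on C/+Lop replicate 4 and of 238.4 and 233.7 on C/-Lop replicates 1 and 2, against 255.6 on GF replicate 1 and 313.8 on SPF replicate 13. Tph1 rose by 1.19 in C/+Lop against GF mice (SE 0.27, adjusted p 0.0168 by limma), though without GF replicate 3 the adjusted p was 0.0543. It was 1.44 higher in C/+Lop and 1.01 higher in C/-Lop than in SPF mice (adjusted p 0.00278 and 0.0197 by limma), the latter with an adjusted p of 0.0549 without SPF replicate 2. On the intensities as deposited these 3 differences were 0.70, 0.46 and 0.11, and none passed (adjusted p 0.248, 0.0859 and 0.637 by limma). Without background correction but with normalization they were 0.66, 0.75 and 0.48 and passed. Of 10 enteroendocrine markers, a list that holds Tph1 itself, 3 rose and 1 fell in C/+Lop against GF mice, and 4 rose in each recipient group against SPF mice. Of all probes, 7.09% passed in C/+Lop against GF, and 16.8% (C/-Lop) and 22.0% (C/+Lop) against SPF mice. The mean of these markers was 8.84 to 8.97 on C/+Lop and 8.62 to 8.95 on C/-Lop arrays. It was 8.45 to 8.89 on GF and 8.40 to 8.61 on SPF arrays. The part of these markers in the Tph1 differences was not tested. In C/-Lop against GF mice Tph1 differed by 0.76 and did not pass. Between the recipient groups the difference of 0.43 (SE 0.27) did not pass after adjustment over all probes (adjusted p 1.00 by limma). Aldh2, an aldehyde dehydrogenase that clears the product of serotonin oxidation, rose by 0.38 in SPF against GF mice (SE 0.10, adjusted p 0.0173 by limma, and 0.0520 without GF replicate 2). Against SPF mice Aldh2 was lower by 0.43 in C/+Lop recipients (adjusted p 0.00884 by limma), a call that held in 8 of 8 fits with 1 array left out. Ddc, which makes serotonin from its precursor, differed by 0.35 (adjusted p 0.173) in SPF against GF mice, and Maob by 0.27 between recipients (adjusted p 1.00).

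**Figure D5:**
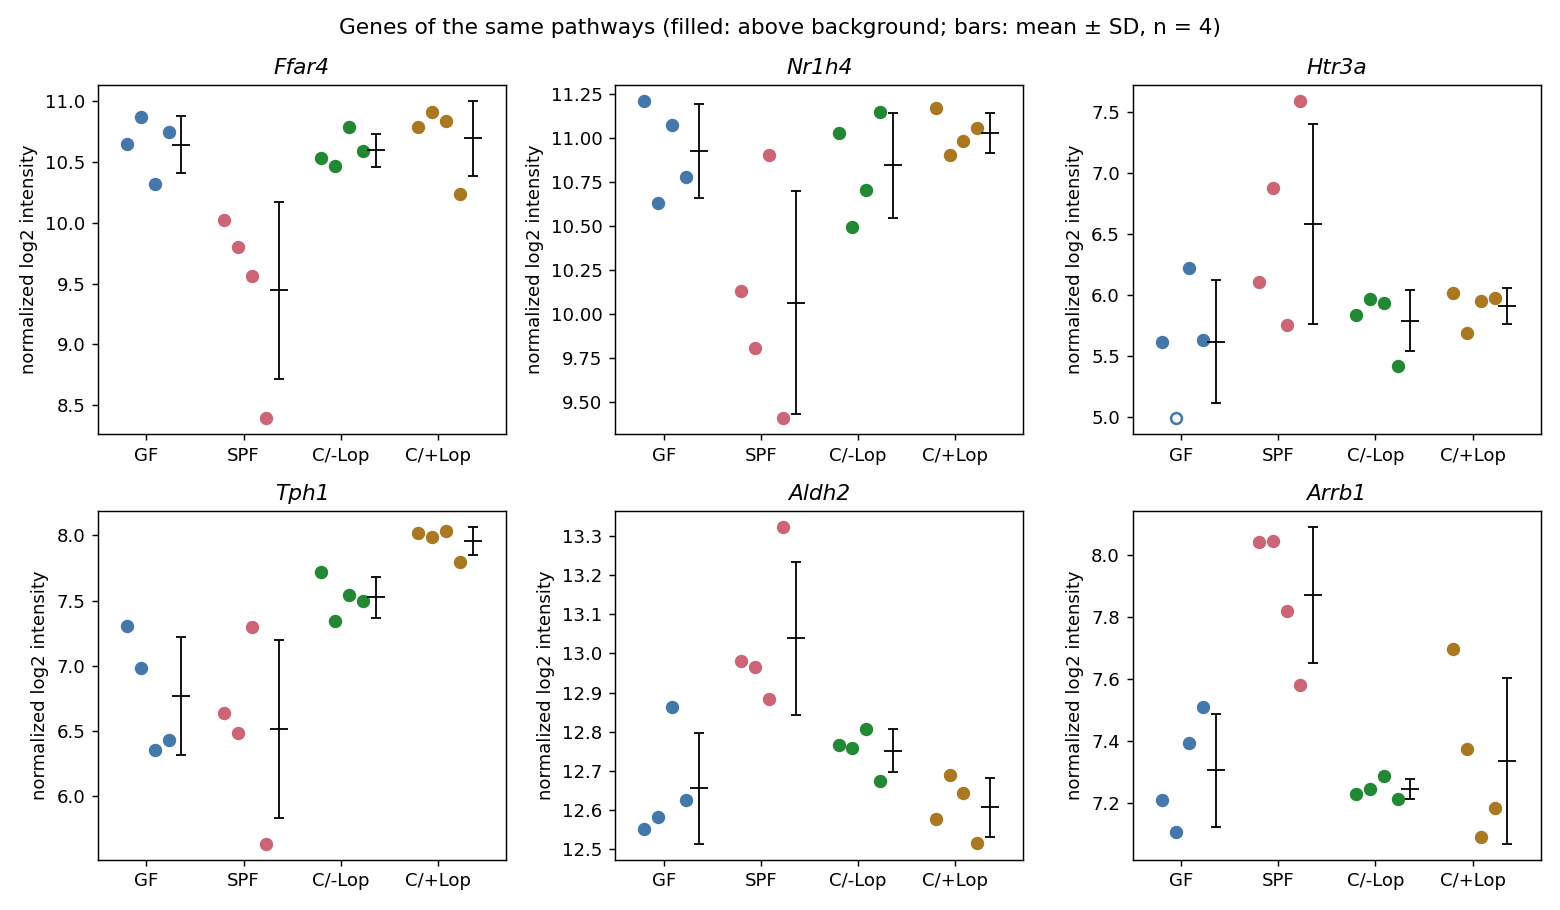
Normalized log2 intensity (y axis) of 6 genes from the same pathways on each array, by group (x axis), filled where above background, with the mean ± SD of 4 arrays in black. Ffar4 is lower on all SPF arrays than on all others, and Tph1 is higher on all recipient arrays (7.34 to 8.03) than on GF and SPF arrays (5.64 to 7.30). The deposited intensities of both genes overlapped between these groups.

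Of the 18 G protein, arrestin, adenylyl cyclase and phospholipase genes that such receptors signal through, 12 could be tested. In SPF against GF mice 3 rose (Arrb1, Arrb2 and Gnai2), 1 fell (Gna11) and 8 did not pass. In each recipient group against SPF mice Gna11 was higher and Arrb1, Gnai2, Gnaq and Adcy9 were lower, and 0 passed in recipients against GF mice. Of all probes, 19.9% passed in SPF against GF, and 16.8% (C/-Lop) and 22.0% (C/+Lop) against SPF mice. Against GF mice the shares in recipients were 2.70% (C/-Lop) and 7.09% (C/+Lop). The second probe of Arrb1 differed from SPF mice by -0.36 in C/-Lop and -0.26 in C/+Lop recipients. It did not pass in either (adjusted p 0.0617 and 0.157 by limma). Gnaq, the alpha subunit of Gq, was lower than in SPF mice by 0.49 in C/-Lop and 0.54 in C/+Lop recipients (adjusted p 0.00389 and 0.00160 by limma), while its second probe differed by -0.079 and 0.027 (adjusted p 0.733 and 0.913). Adcy9, an adenylyl cyclase, was lower by 0.50 and 0.52 (adjusted p 0.0269 and 0.0190 by limma), calls that held in 3 and 5 of the 8 fits with 1 array left out. In SPF against GF mice Arrb1, a beta-arrestin, rose by 0.57 (SE 0.14, adjusted p 0.0109 by limma), while its second probe had a difference of 0.35 that did not pass (adjusted p 0.0610). Gnai2, of an inhibitory G protein, rose by 0.33 (adjusted p 0.0279 by limma) and Arrb2, a second beta-arrestin, by 0.48 (adjusted p 0.0477), calls that held in 4 and 2 of the 8 fits with 1 array left out. Arrb2 did not pass without any 1 of GF replicates 1, 2 and 4 or SPF replicates 1, 2 and 4, nor Gnai2 without GF replicate 1 or 2 or SPF replicate 2 or 4. Gna11, of the Gq family, fell by 0.46 (SE 0.13, adjusted p 0.0206 by limma), and did not pass without GF replicate 2, SPF replicate 2 or SPF replicate 4 (adjusted p 0.0517, 0.0620 and 0.0518). Against SPF mice the calls of Gna11 in C/-Lop recipients (0.40, adjusted p 0.0411 by limma) and of Gnai2 in C/+Lop recipients (-0.30, adjusted p 0.0350) each held in 2 of 8 such fits. Smooth muscle markers moved in the same comparisons. Of the 9 tested, 6 rose in SPF against GF mice (median 0.67), and 6 fell in each recipient group against SPF mice (medians -0.76 and -0.87). Gna11 ran the other way, and Arrb2 differed from SPF mice by only 0.10 in C/-Lop and 0.05 in C/+Lop recipients. Macrophage markers had a median difference from GF mice of 0.68 in SPF, 0.71 in C/-Lop and 0.73 in C/+Lop mice. The part of either kind of marker in these differences was not tested. Of 8 genes listed for the transport of butyrate and related acids, 3 could be tested, and 0 passed in any comparison. Among these Slc5a8 differed by 0.16 and Bsg by -0.05 in SPF against GF mice (adjusted p 0.577 and 0.828 by limma), and Bsg by 0.10 and Slc16a3 by -0.10 between recipients. The second probe of Bsg differed the other way, by 0.088 and -0.21. In C/+Lop against C/-Lop recipients 0 of the 29 genes tested in these 5 lists passed, as was so for all 14102 probes, of which 608 had an unadjusted p under 0.05 by limma. The lowest p-values there within their lists belonged, beside the genes above, to Olfr78, which is without a fold here, Nr1h4 (0.18), Htr3b (-0.24), Htr3a (0.12), Plcb4 (-0.30) and Gnai2 (0.13), each with an adjusted p of 1.00.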

How the data were processed

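RNA of 16 arrays, 4 per group, was assigned to groups by the sample labels. Per array and probe, the deposited values are the mean bead intensity, neither background-subtracted nor normalized, its standard error, the bead count (37 to 39 as the median of an array) and a detection p-value. The authors also deposited log2 values for 16029 probes, made with limma according to the submitters' processing notes (its version is not given in the sources used here). At most, these differed by 0.0251 from the values used here. These values rest on no genome build.

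Background correction (normexp, with the negative controls estimated from detection p-values), an offset of 16, quantile normalization and the log2 transform were done by neqc of limma 3.58.1 in R 4.3.3. The filter kept 14102 probes, those with a detection p under 0.05 on 4 or more of the 16 arrays. Group means were fitted on all 16 arrays, which left 12 residual degrees of freedom, and moderated tests were two-sided, with Benjamini-Hochberg adjustment over all kept probes. Differences are of log2 group means, with 95% intervals from the same fit. The script was tested on simulated data. Exact permutation tests used the 8 arrays compared. The limit of detection of an array is the lowest intensity among its probes above background.

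Gene names came from the platform table, which lists 15096 probes, and 15091 of these matched the RefSeq gene table of GRCm38.p6 by Entrez identifier, and 13321 of the kept probes had a gene. A gene with several probes is represented by the one with the highest mean. The receptors and the gene lists were chosen with earlier results of these data known. In the text stand all probes of the 4 receptors, up to 2 genes of each of 5 pathway lists with the smallest p in SPF against GF and in C/+Lop against C/-Lop, other list members that passed, and the 3 genes most correlated with each receptor. The closing section gives the effect of other backgrounds, normalizations, filters, covariates and arrays left out.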

Additional observations from a re-analysis of the deposited data

Results flagged for a closer look

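In 1 of 16 groups of 4 values (4 receptors in 4 groups), 1 array stood apart from the rest by Dixon's criterion, which chance meets in about 1 in 20 groups. Htr4 had a log2 value of 6.00 on SPF replicate 4, against 5.61 on the nearest array of the group, and this gap was 0.931 of the whole range. The same array had the lowest Ffar2 value of its group (9.62), a log2 value of Xist of 6.64, where the other SPF arrays were under 5, and the lowest detection limit of its group (140.5). Without it the Htr4 difference between SPF and GF mice was -0.05. The part of these values in the Htr4 level was not tested.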

How the results depend on the processing

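The 24 differences of the receptors were recomputed under 16 other settings and with each array left out, 552 values in all, and 2 of these passed after adjustment. Ffar3 in C/-Lop against SPF passed with Xist as a covariate (0.41, adjusted p 0.0224 by limma), and Ffar2 in SPF against GF passed without SPF replicate 4 (adjusted p 0.0497 by limma, with a range of 0.18 to 0.89 as single arrays were left out). Of the other settings, 325 values kept their sign and 34 turned it, all from differences that did not pass. The cause of these turns was not tested.

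Signs turned as follows. On intensities without background correction or normalization, a setting chosen after seeing the data, Ffar2 differed by 0.026 in C/+Lop against C/-Lop. Ffar3 then differed by 0.19 in SPF against GF, 0.011 in C/+Lop against GF, -0.13 in C/-Lop against SPF and -0.18 in C/+Lop against SPF. Hcar2 differed by 0.0064 in C/+Lop against C/-Lop, 0.013 in C/+Lop against GF and -0.25 in C/-Lop against SPF, Htr4 by 0.028 in C/+Lop against GF and -0.24 in C/-Lop against SPF, Bsg by 0.23 in SPF against GF and Gna11, which had passed, by -0.088 in C/-Lop against SPF. With array weights, Ffar3 differed by -0.088 in C/+Lop against SPF, Hcar2 by -0.071 in C/-Lop against GF and -0.095 against SPF, Htr4 by 0.045 in C/+Lop against GF and Bsg by 0.018 in SPF against GF. With epithelial markers as a covariate, Ffar3 differed by -0.017 in C/+Lop against SPF, Hcar2 by -0.076 in C/-Lop against GF and -0.22 in SPF against GF, Bsg by 0.12 and Htr2b by -0.30 in SPF against GF. With median scaling, Hcar2 differed by -0.023 in C/-Lop against GF and -0.10 against SPF, Htr4 by -0.074 in C/-Lop against SPF and Bsg by 0.019 in SPF against GF, and with cyclic loess Hcar2 by -0.047 in C/-Lop against SPF. With Xist as a covariate, Ffar2 differed by 0.081 in C/-Lop and 0.050 in C/+Lop against SPF, Ffar3 by 0.053 in C/+Lop against GF, and Htr4 by -0.0028 in C/-Lop against GF and -0.012 against SPF. Without SPF replicates 2 and 4, Ffar3 differed by -0.013 and Htr4 by 0.0022 in C/+Lop against SPF, and Hcar2 by -0.0064 and Htr4 by -0.045 in SPF against GF.

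With single arrays left out, Ffar2 ran from -0.12 to 0.015 in C/+Lop against C/-Lop, from -0.36 to 0.22 in C/-Lop and from -0.40 to 0.18 in C/+Lop against SPF. Ffar3 ran from -0.091 to 0.10 in C/+Lop against SPF. Hcar2 ran from -0.11 to 0.14 in C/-Lop against GF, from -0.11 to 0.14 against SPF and from -0.095 to 0.11 in SPF against GF. Htr4 ran from -0.12 to 0.015 in C/+Lop against GF, from -0.14 to 0.0092 against SPF and from -0.052 to 0.11 in SPF against GF. Bsg (-0.15 to 0.032) and Slc5a8 (-0.0039 to 0.34) in SPF against GF, and Htr3a (-0.0026 to 0.19) and Slc16a3 (-0.17 to 0.021) between recipients, spanned 0 as well.

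The numbers of replicates were not taken to pair the arrays, and whether they pair the recipients is not settled. Deviations of arrays with the same number correlated at -0.55 to -0.09 in SPF against GF and at 0.02 to 0.36 between recipients, where 4 of 8 arrays correlated best with their own number. With the replicate number as a block, Ffar2 differed by 0.13 in C/-Lop and 0.092 in C/+Lop against SPF, Hcar2 by -0.043 and Htr4 by -0.0046 in C/-Lop against SPF, and no receptor passed.

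The count of all probes that passed in SPF against GF, 2813, was 73 with epithelial markers as a covariate, 125 with the Benjamini-Hochberg adjusted p of the methods' t-test (3688 unadjusted), 696 with both groups fitted alone and 4286 on the intensities as deposited. In the other comparisons with calls it ran from 15 to 2577 (C/-Lop against GF, 381), from 24 to 3225 (C/+Lop against GF, 1000), from 631 to 6130 (C/-Lop against SPF, 2373) and from 976 to 4397 (C/+Lop against SPF, 3096). Leaving out single arrays gave 1358 to 3484 in SPF against GF (1519 without GF replicate 2, 1358 without SPF replicate 2 and 1861 without SPF replicate 4), 99 to 343 in C/-Lop against GF (210 or fewer without GF replicates 1, 3 or 4 or C/-Lop replicates 2, 3 or 4), 451 to 963 in C/+Lop against GF (658 or fewer without GF replicates 1 or 3 or C/+Lop replicates 1, 2 or 3), 1059 to 3024 in C/-Lop against SPF (1510 or fewer without SPF replicate 2 or C/-Lop replicates 2 or 4) and 1607 to 3383 in C/+Lop against SPF (1910 or fewer without SPF replicate 2 or C/+Lop replicate 3). Between recipients it was 0 except by the unadjusted t-test (893). Ffar3 and Hcar2 have no value under the stricter filter, which they do not pass. The signals of Ffar3, Hcar2 and Htr4 were close to background, which limits what their differences show. Over 40 differences of pathway genes, 507 values under other settings kept their sign and their side of the threshold, 108 lost their call, 4 gained one and 6 turned sign.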
